A study of Mus musculus with 12 samples.

Results

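The subunit genes of the nuclear RNA polymerases were followed in mouse T-lineage acute lymphoblastic leukemia (T-ALL, a malignancy of T-cell precursors) 4 hours after dexamethasone. Members were all genes of the expression table whose symbol begins with Polr1, Polr2 or Polr3, which gave 29 of 38339 rows. By textbook subunit composition, 3 of them (Polr1a, Polr1b and Polr1e) belong to polymerase I alone, 7 (Polr2a, Polr2b, Polr2c, Polr2d, Polr2g, Polr2i and Polr2j) to polymerase II alone and 10 (among them Polr3a, Polr3b, Polr3c, Polr3d, Polr3e, Polr3f, Polr3g, Polr3gl and Polr3k) to polymerase III alone. A further 2 (Polr1c and Polr1d) are shared by polymerases I and III, and 5 (Polr2e, Polr2f, Polr2h, Polr2k and Polr2l) by all 3 enzymes. The remaining rows are Polr2m, which encodes a protein that associates with polymerase II, and Polr2k-ps, a processed pseudogene. All 29 rows passed the filter on low values and were tested.

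Polymerase I makes the large ribosomal RNA precursor in the nucleolus, polymerase II makes messenger RNA, and polymerase III makes transfer RNA, 5S ribosomal RNA and other short RNAs. Each enzyme has its own pair of large catalytic subunits, and a set of small subunits is common to all. In growing lymphoid cells, output of polymerases I and III is known to follow growth signals, among them the transcription factor MYC, and glucocorticoids are used to kill lymphoid leukemia cells.

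Total RNA was sequenced from bone marrow of mice that carried 6 transplanted primary T-ALLs, and each leukemia gave 1 library after vehicle (VEH) and 1 after dexamethasone (DEX, a synthetic glucocorticoid). The strain was C57BL/6 x 129Sv/Jae F1. Leukemia 1 is coded 73A-46B, leukemia 2 is 73M-19A, leukemia 3 is 78A-143B, leukemia 4 is 2M-127B, leukemia 5 is 20M-116B and leukemia 6 is JW-81-59B. Recipients of both groups were moribund when treated and were killed 4 hours later, and marrow was freed of red cells by lysis before RNA was extracted. The labels give no driver mutation, genotype, age or dose, and every arm is a lone library, so a value for 1 leukemia has no replicate of its own.

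Values are FPKM as deposited by the authors (fragments per kilobase of gene, relative to library depth). Differences are DEX minus VEH on the log2(FPKM + 1) scale, with the standard error of a limma fit that takes leukemia as a block, and they understate the change of low genes. A gene was called at a Benjamini-Hochberg adjusted p under 0.05 over the 12358 genes tested. Over all of these, 13.6% were called, 9.28% as lower and 4.27% as higher with DEX, and the median difference was -0.05. Libraries had 11778 to 12970 genes at 1 FPKM or more, and an estimate from sparse genes gave 11800000 to 36300000 fragments in 11 of 12 libraries. In the VEH library of leukemia 2 the estimate was not sharp, and that library also had the highest summed erythroid markers (1178 FPKM, against 8.67 to 329.6 in the other VEH libraries) and B-lineage markers (51.6 FPKM, against 1.23 to 16.2). Summed T-lineage markers were high in all libraries, at 1242 to 2140 FPKM in VEH and 1177 to 1985 in DEX. Cd4 and Cd8a, however, were at 3.48 and 0.50 FPKM in the VEH library of leukemia 6. Cd7 was at most 0.78 FPKM in leukemias 1, 2, 3 and 5. Of 9 tested T-lineage markers, 2 were called as lower with DEX (Cd3g at -0.33, Lck at -0.29) and 1 as higher (Cd8b1 at 0.26).

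DEX lowered 7 of the 29 members and raised 0. The lower genes were Polr1a, Polr1b and Polr1e of polymerase I, Polr2g of polymerase II, Polr3d and Polr3e of polymerase III, and the shared Polr2h. At an unadjusted p under 0.05, 8 members were lower and 3 higher (Polr2b, Polr2i and Polr3c); limma was the only test applied. By class, 3 of 3 polymerase I genes, 1 of 7 polymerase II genes, 2 of 10 polymerase III genes and 1 of 7 shared genes were lower, beside 9.28% of all genes. None of these counts was tested against that background, and the last 3 are too small to set apart from it. The first rests on 3 genes and fell to 1 in some alternative analyses. In bulk samples, fewer cells that express a gene and less RNA per cell cannot be told apart.

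Gene coordinates are those of GENCODE M21 on GRCm38. The promoters of the 3 polymerase I genes are shown because these genes fell together. Each line holds the 150 bases upstream of the start in RefSeq, on GRCm38.p6, read 5′ to 3′ on the strand of the gene (plus in each case). Capitals mark AGAACA or its reverse complement TGTTCT, the half-site that the glucocorticoid receptor prefers. The windows are chr6:71908903-71909052 for Polr1a, chr2:129100846-129100995 for Polr1b and chr4:45018459-45018608 for Polr1e.
Polr1a: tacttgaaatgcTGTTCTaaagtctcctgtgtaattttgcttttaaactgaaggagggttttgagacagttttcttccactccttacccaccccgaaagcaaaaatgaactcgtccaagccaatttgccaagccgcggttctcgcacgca
Polr1b: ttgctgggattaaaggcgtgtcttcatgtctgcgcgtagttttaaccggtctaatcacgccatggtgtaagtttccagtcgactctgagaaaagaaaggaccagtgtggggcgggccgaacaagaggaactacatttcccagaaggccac
Polr1e: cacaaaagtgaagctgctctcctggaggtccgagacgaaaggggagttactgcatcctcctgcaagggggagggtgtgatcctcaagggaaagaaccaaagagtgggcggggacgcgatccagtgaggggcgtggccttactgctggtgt

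RefSeq promoters of 300 bases (250 before to 50 after the start) were found for 22 of the 29 members. On either strand, AGAACA occurred in 3 of these 22 genes (Polr1a, Polr2a and Polr2i) and in 21.3% of the 27025 genes in the table, counting a gene if any of its promoters held the motif (18.97% of 32851 promoters). CACGTG, the palindromic E-box that MYC can bind, occurred in 0 of 3 polymerase I genes, 0 of 5 polymerase II genes, 3 of 7 polymerase III genes and 1 of 4 genes shared by all 3 enzymes, against 8.09% of all genes counted the same way (7.15% of all promoters). No member held both motifs. The 4 genes with CACGTG are given with 10 bases on each side and the motif in capitals, since 2 of them fell with DEX (Polr2h and Polr3e) and the other 2 did not pass the test (Polr3c and Polr3gl).
Polr2h: tacttttctcCACGTGagggggtgcg
Polr3e: ccgctcccccCACGTGtccggcggag
Polr3c: ccgcaagggtCACGTGagtccgcccg
Polr3gl: ctggctccgcCACGTGtctggatgag
The first base of the motif lies at 24 and 6 after the start in Polr2h and Polr3e, and at -237 and -194 in Polr3c and Polr3gl. These matches describe letters in a window and are not evidence of binding.

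All 3 polymerase I genes fell with DEX, each in 6 of 6 leukemias, while 13.7% of all genes tested were lower in all 6. Polr1b (ENSMUSG00000027395, chromosome 2, 129100995 to 129126594, plus strand) encodes the second largest, catalytic subunit. Its VEH levels in leukemias 1 to 6 were 27.66, 19.02, 23.71, 22.93, 20.19 and 21.53 FPKM, and its DEX levels were 17.32, 11.91, 15.18, 12.79, 10.02 and 13.48 FPKM. The highest DEX library was below the lowest VEH library, a separation seen in the lower direction for 1.34% of all genes. The mean fell from 22.5 ± 3.05 to 13.5 ± 2.55 FPKM (SD, n = 6), a difference of -0.71 ± 0.07 (SE; limma adjusted p = 0.00107). This was the deepest fall among the members. It remained past the threshold in 18 of 18 alternative analyses, at -0.81 to -0.66 (limma adjusted p = 0.000783 to 0.0319).

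**Figure D1:**
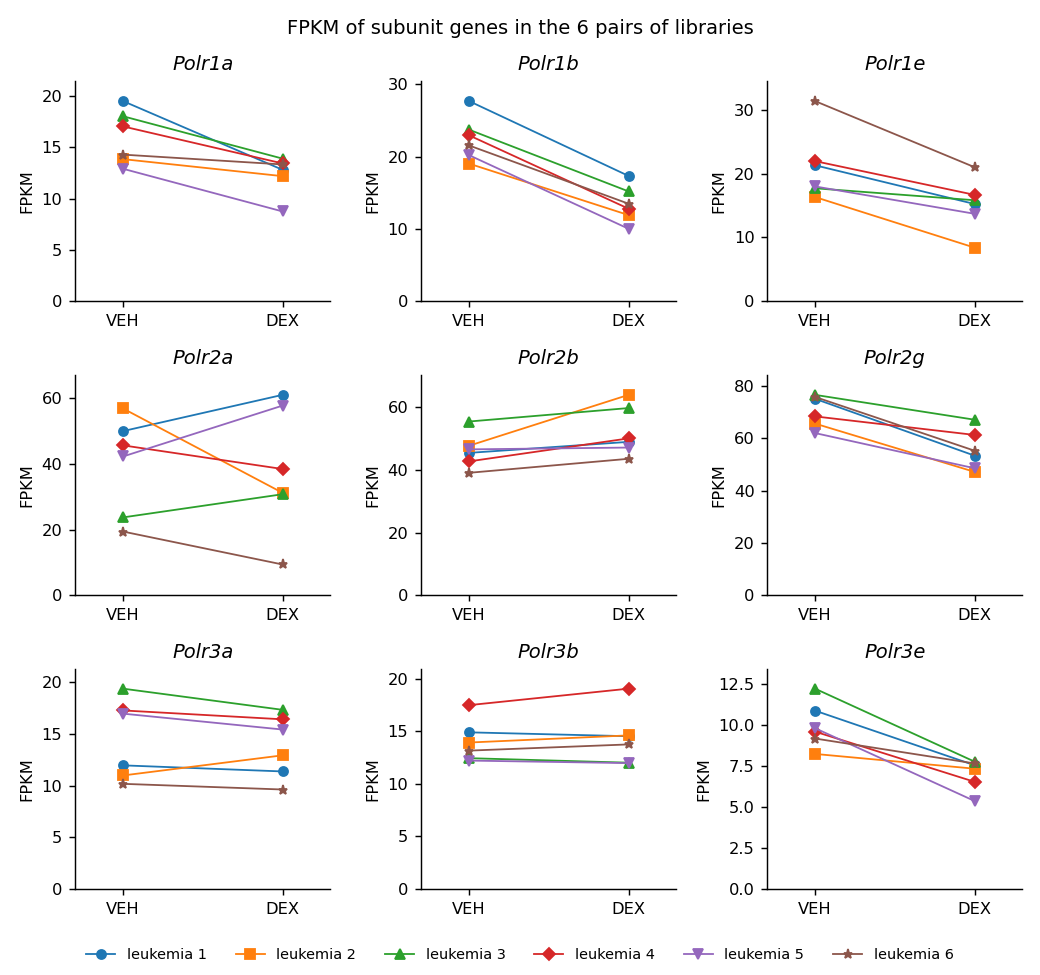
FPKM (vertical axis, linear from 0) of the largest and second largest subunit of each polymerase and of the called genes Polr1e, Polr2g and Polr3e in the VEH and DEX library of each leukemia; lines join the 2 libraries of a leukemia. Polr1a and Polr1b went down in 6 of 6 leukemias and Polr2b went up in 6 of 6, whereas Polr2a went down in 3 and up in 3.

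Polr1a (ENSMUSG00000049553, chromosome 6, 71909053 to 71984935, plus strand) encodes the largest subunit, which carries the active site. It was at 19.52, 13.86, 18.04, 17.05, 12.92 and 14.30 FPKM in VEH and at 12.82, 12.20, 13.91, 13.44, 8.76 and 13.34 FPKM in DEX, in the order of leukemias 1 to 6. The groups overlapped, but each DEX library was below its own VEH library. The difference was -0.34 ± 0.08 (SE, n = 6; limma adjusted p = 0.0296), from 15.9 ± 2.63 to 12.4 ± 1.88 FPKM (SD). This call was lost in 10 of 18 alternative analyses. It was lost without leukemia 1, 3, 4 or 5 (-0.34 to -0.29, limma adjusted p = 0.0592 to 0.10). It was also lost with median-of-ratios scaling (-0.28, limma adjusted p = 0.0723) and with quantile normalization (-0.28, limma adjusted p = 0.0792).

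Because Polr1b fell further than Polr1a, the ratio of Polr1a to Polr1b was higher with DEX in each leukemia. It was 0.71, 0.73, 0.76, 0.74, 0.64 and 0.66 in VEH and 0.74, 1.02, 0.92, 1.05, 0.87 and 0.99 in DEX. The rise was smallest in leukemia 1, the only leukemia whose DEX ratio lay within the VEH range. This ratio was not tested.

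Polr1e encodes a subunit that pairs with the product of Cd3eap on the side of the enzyme and takes part in initiation. It fell from 21.1 ± 5.47 to 15.1 ± 4.11 FPKM (SD, n = 6), a difference of -0.47 ± 0.09 (SE; limma adjusted p = 0.0152). Across leukemias, the fall ran from -0.15 in leukemia 3 to -0.88 in leukemia 2. Levels themselves ranged from 8.40 FPKM (DEX, leukemia 2) to 31.34 FPKM (VEH, leukemia 6), so the groups overlapped widely and the call rests on the pairing. Without the leukemia block, with no filter on low values, in leukemias 2, 5 and 6 alone or with a term for the closing S-number of the labels, only Polr1b of the 3 genes was called.

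The annotation lists the other polymerase I subunits under older symbols, and these were read from a list of related genes. Cd3eap, the partner of Polr1e, fell from 7.92 ± 1.92 to 5.28 ± 1.41 FPKM (SD, n = 6), a difference of -0.51 ± 0.09 (SE; limma adjusted p = 0.00934), and was lower in 6 of 6 leukemias. Twistnb, which encodes the stalk subunit, was at 27.7 FPKM in VEH and 23.3 in DEX, lower in 6 of 6 but past the threshold only in the unadjusted test (-0.24 ± 0.07, limma adjusted p = 0.0546). Znrd1, whose product helps the enzyme cleave its RNA, was at 34.8 and 36.3 FPKM (0.09 ± 0.08, limma adjusted p = 0.485). With these 3 added, 4 of 6 subunit genes of polymerase I alone were lower and 0 higher, with a median difference of -0.40. The Cd3eap call was lost without the leukemia block, in leukemias 2, 5 and 6 alone and with the S-number term (limma adjusted p = 0.0502 to 0.240).

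**Figure D2:**
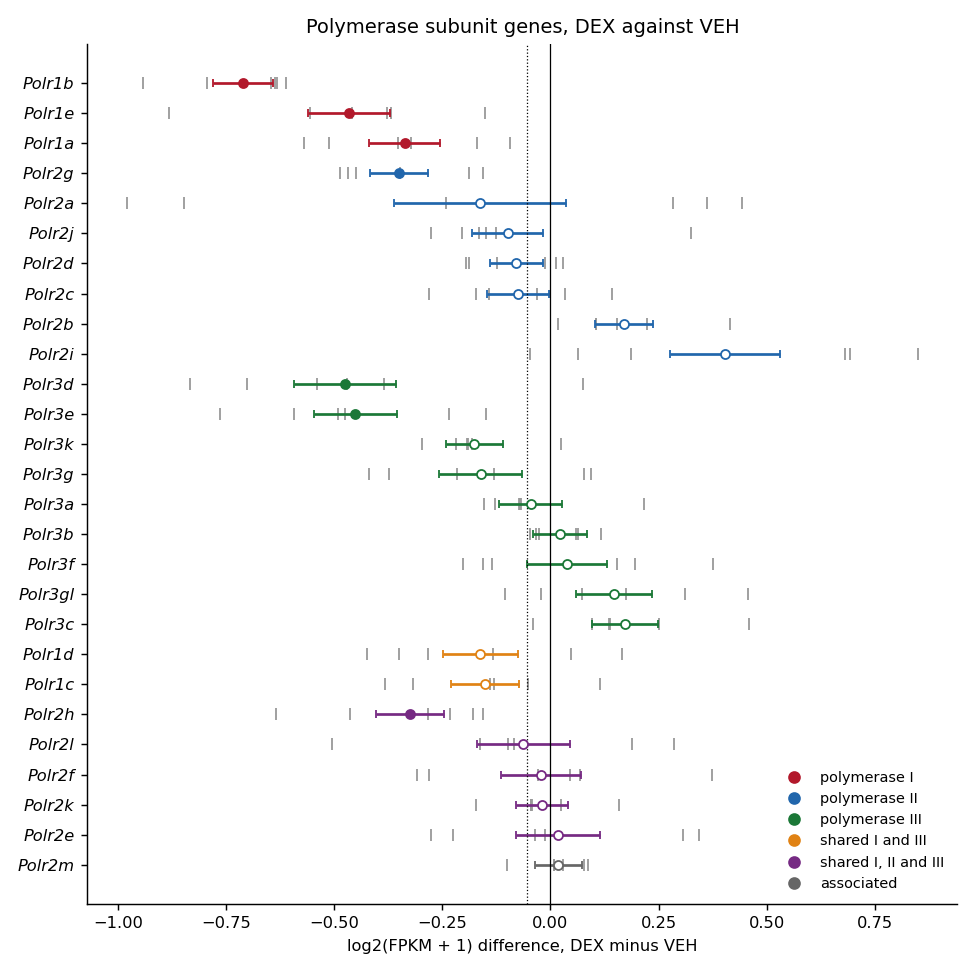
Difference DEX minus VEH on the log2(FPKM + 1) scale (horizontal axis) for the named members other than the pseudogene, by class; large points are limma estimates with SE bars, filled where past the threshold, grey ticks are single leukemias, and the dotted line is the median of all genes tested (-0.05). The 3 polymerase I genes lie between -0.71 and -0.34, while the points of genes that were not called lie between -0.18 and 0.40.

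Among the 7 genes of polymerase II alone, 1 was lower, 0 were higher and 6 did not pass, with a median of -0.08; at an unadjusted p under 0.05, 2 were higher (Polr2b and Polr2i). Polr2g (ENSMUSG00000071662, chromosome 19, 8793127 to 8798577, minus strand) encodes a stalk subunit that leaves and rejoins the core together with the product of Polr2d. Its VEH levels were 75.19, 65.70, 76.70, 68.45, 62.07 and 75.91 FPKM, and its DEX levels were 53.42, 47.20, 67.18, 61.35, 48.59 and 55.31 FPKM. DEX was lower in each leukemia, and the group ranges overlapped. The mean fell from 70.7 ± 6.13 to 55.5 ± 7.64 FPKM (SD, n = 6), a difference of -0.35 ± 0.07 (SE; limma adjusted p = 0.0126), and the call was kept when any single leukemia was left out. Its stalk partner Polr2d was at 35.0 ± 4.73 and 33.0 ± 4.83 FPKM, a difference of -0.08 ± 0.06 (limma adjusted p = 0.413).

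Polr2a (ENSMUSG00000005198, chromosome 11, 69733997 to 69758637, minus strand), which encodes the largest subunit with the heptad-repeat tail, differed more among libraries than any other functional member. It was at 50.02, 56.93, 23.70, 45.68, 42.28 and 19.39 FPKM in VEH and at 61.08, 31.20, 30.77, 38.46, 57.80 and 9.34 FPKM in DEX, a 6.54-fold range over all 12 libraries. DEX was higher in leukemias 1, 3 and 5, by 0.28, 0.36 and 0.44, and lower in leukemias 2, 4 and 6, by -0.85, -0.24 and -0.98. The overall difference of -0.16 ± 0.20 (SE, n = 6; limma adjusted p = 0.611) was smaller than its error. The 2 leukemias with the deepest falls, 2 and 6, were also those whose summed FPKM rose most, from 1507527 to 1910539 and from 1664239 to 2019058. Their granulocyte and monocyte marker sums went from 4794 to 1710 and from 3942 to 1555 FPKM. In leukemia 5 the summed FPKM also rose, from 1556034 to 1799765, while Polr2a rose by 0.44. In leukemia 1 the granulocyte and monocyte sum fell from 9490 to 5643 FPKM, while Polr2a rose by 0.28. The part of library composition in the Polr2a values was not tested.

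Polr2b, the second largest subunit, was at 45.45, 47.73, 55.47, 42.73, 46.57 and 39.08 FPKM in VEH and at 48.97, 63.99, 59.77, 50.08, 47.15 and 43.56 FPKM in DEX. It was higher with DEX in 6 of 6 leukemias, as were 5.97% of all genes, but by little (0.17 ± 0.07, SE; limma adjusted p = 0.121). The ratio of Polr2a to Polr2b accordingly ran from 0.43 to 1.19 in VEH and from 0.21 to 1.25 in DEX, a wider range than that of Polr1a to Polr1b.

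Polr2i, a small subunit that contributes to start-site choice and transcript fidelity, had the largest positive difference of a functional member. Its mean went from 24.5 ± 5.79 to 32.5 ± 5.77 FPKM (SD, n = 6), a difference of 0.40 ± 0.13 (SE; limma adjusted p = 0.0676). The value was 0.69, 0.85 and 0.68 in leukemias 2, 4 and 6 and -0.05 to 0.19 in the other 3. Without leukemia 3 it passed the threshold (0.49, limma adjusted p = 0.0427). Exons of Tbcb on the opposite strand overlap 26.8% of the exonic bases of Polr2i, and the strand setting of the counting is not given, so reads of the 2 genes may not be separated. Polr2c and Polr2j, whose products pair in the assembly platform, were at -0.07 ± 0.07 and -0.10 ± 0.08 and did not pass; their exons also overlap opposite-strand genes, Dok4 and Lrwd1, by 18.1% and 15.9%.

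Among the 10 genes of polymerase III alone, 2 were lower, 0 were higher and 8 did not pass, with a median of -0.10. At an unadjusted p under 0.05, 1 was higher (Polr3c). The 2 lower genes, Polr3d and Polr3e, encode partners of a dimer on the flank of the enzyme that acts in initiation and termination. Polr3e (ENSMUSG00000030880, chromosome 7, 120917744 to 120947432, plus strand) was at 10.87, 8.23, 12.21, 9.59, 9.80 and 9.17 FPKM in VEH and at 7.54, 7.33, 7.76, 6.53, 5.36 and 7.65 FPKM in DEX. Every DEX library lay below every VEH library. The difference was -0.45 ± 0.10 (SE, n = 6; limma adjusted p = 0.0179), from 9.98 ± 1.39 to 7.03 ± 0.93 FPKM (SD).

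Polr3d (ENSMUSG00000000776, chromosome 14, 70438757 to 70443447, minus strand) was at 6.70, 5.15, 10.55, 10.26, 8.44 and 6.89 FPKM in VEH and at 4.56, 5.48, 6.94, 5.92, 4.30 and 5.04 FPKM in DEX. It was lower in 5 of 6 leukemias, and leukemia 2, with the lowest VEH level, was the exception. The difference was -0.48 ± 0.12 (SE, n = 6; limma adjusted p = 0.0311). Both genes are low, and Polr3d rests on an estimated 149 fragments in its thinnest library. The Polr3d call was lost without leukemia 1, 3, 4 or 5 (-0.48 to -0.40; limma adjusted p = 0.0641 to 0.10), and that of Polr3e without leukemia 1, 4 or 5 (-0.45 to -0.39; limma adjusted p = 0.0544 to 0.063).

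The catalytic pair of polymerase III, Polr3a and Polr3b, did not pass the test. Polr3a was at 11.97, 10.99, 19.40, 17.29, 16.98 and 10.18 FPKM in VEH and at 11.38, 12.94, 17.35, 16.43, 15.44 and 9.63 FPKM in DEX. Polr3b was at 14.91, 13.94, 12.45, 17.50, 12.22 and 13.17 FPKM in VEH and at 14.54, 14.62, 12.02, 19.07, 11.98 and 13.76 FPKM in DEX. The differences were -0.05 ± 0.07 (SE, n = 6; limma adjusted p = 0.705) for Polr3a and 0.02 ± 0.06 (limma adjusted p = 0.842) for Polr3b. In both genes the spread between leukemias exceeded the change within each of them.

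Polr3c, Polr3f and either Polr3g or Polr3gl form the trimer that opens promoters. Of these 4 genes, 0 passed the test, and their median was 0.09. The pair Polr3d and Polr3e had a median of -0.46. That pair holds the 2 polymerase III genes called as lower, so its low median follows from those calls and adds no further result. Polr3c was at 18.3 ± 2.81 and 20.6 ± 1.64 FPKM (SD, n = 6), 0.17 ± 0.08 (SE; limma adjusted p = 0.165), and higher in 5 of 6 leukemias. Polr3f differed by 0.04 ± 0.09. Polr3g and Polr3gl encode alternative forms of the same subunit, the first known from stem and tumour cells and the second from most tissues.

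Polr3gl was the more abundant form in all 12 libraries. Its levels were 12.73, 11.44, 13.28, 13.70, 12.89 and 14.82 FPKM in VEH and 17.83, 12.08, 12.27, 15.59, 16.23 and 14.59 FPKM in DEX. Polr3g was at 7.19, 5.85, 6.88, 7.73, 5.33 and 6.09 FPKM in VEH and at 6.48, 4.90, 5.08, 5.53, 5.68 and 6.57 FPKM in DEX. The ratio of Polr3gl to Polr3g was 1.77 to 2.43 in VEH and 2.22 to 2.86 in DEX. It was higher with DEX in every leukemia except 6, where it went from 2.43 to 2.22. Neither gene passed on its own, at 0.15 ± 0.09 for Polr3gl (SE, n = 6; limma adjusted p = 0.290) and -0.16 ± 0.10 for Polr3g (limma adjusted p = 0.293).

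Polr3k, which encodes the RNA-cleaving subunit, was lower in 5 of 6 leukemias at -0.18 ± 0.06 (SE; limma adjusted p = 0.109). Crcp, a further subunit gene listed under an older symbol, differed by 0.03 ± 0.08 (limma adjusted p = 0.829). With Crcp, 2 of 11 subunit genes of polymerase III alone were lower and the median was -0.05, that of all genes.

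Of the 7 shared genes, 1 was lower, 0 were higher (also 0 at an unadjusted p under 0.05) and 6 did not pass, with a median of -0.06. Polr2h (ENSMUSG00000021018, chromosome 16, 20717665 to 20722267, plus strand), which is built into all 3 enzymes, was at 35.80, 24.94, 28.86, 25.85, 24.63 and 31.33 FPKM in VEH and at 22.70, 21.09, 25.38, 21.08, 17.59 and 28.02 FPKM in DEX. It was lower in 6 of 6 leukemias, most in leukemia 1 (-0.63) and least in leukemia 6 (-0.16), and the groups overlapped. The difference was -0.32 ± 0.08 (SE, n = 6; limma adjusted p = 0.0292), and the call was lost without leukemia 1, 4 or 5 (-0.33 to -0.26; limma adjusted p = 0.0704 to 0.0978).

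The other shared genes of all 3 enzymes stayed near 0: Polr2e at 0.02 ± 0.10, Polr2f at -0.02 ± 0.09, Polr2k at -0.02 ± 0.06 and Polr2l at -0.06 ± 0.11 (SE, n = 6). Rescaling to TPM, which gives all libraries the same sum, turned the sign of Polr2e to -0.11, and median-of-ratios scaling turned Polr2f and Polr2k to 0.04. The pair shared by polymerases I and III, which forms their assembly platform, was at -0.15 ± 0.08 for Polr1c (limma adjusted p = 0.228) and -0.16 ± 0.09 for Polr1d (limma adjusted p = 0.243). Polr1d was called as lower only after rescaling to TPM (-0.30, limma adjusted p = 0.0361), a scaling that moved the median of all genes to -0.17.

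Polr2m, which encodes a protein that binds polymerase II and restrains its initiation, was the steadiest member, with a 1.38-fold range over 12 libraries and a difference of 0.02 ± 0.05 (SE; limma adjusted p = 0.848). Polr2k-ps was listed at 0 in 4 libraries and reached 10.01 FPKM at most. For this gene model of 175 bases, 1 fragment is worth an estimated 1.06 to 3.26 FPKM, and the largest estimate was 7.65 fragments. It resembles Polr2k in sequence, its reads may belong to that gene, and its difference (0.47 ± 0.70, limma adjusted p = 0.690) has no useful precision.

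Class medians were also set side by side within each leukemia. The median difference of the polymerase I genes in leukemias 1 to 6 was -0.57, -0.63, -0.35, -0.38, -0.51 and -0.56. That of the polymerase II genes was 0.03, -0.03, -0.05, -0.15, 0.02 and -0.13, and that of the polymerase III genes -0.17, 0.07, -0.13, -0.13, -0.14 and -0.05. Polymerase I therefore had the lowest of these medians in each of the 6 leukemias, and the medians of all genes were -0.03, -0.12, -0.02, -0.01, -0.03 and -0.09. The medians of the other 2 enzymes lay on either side of those of all genes. The widest gap was that of polymerase III in leukemia 2, at 0.07 against -0.12. Relative to the median of all genes, the polymerase I median was -0.41 as deposited and -0.41 under each of TPM, median-of-ratios and quantile scaling. TPM and median-of-ratios scaling apply 1 factor to each library and shift both medians nearly alike, so there the difference stays largely by construction. Over the alternatives it ran from -0.51 in leukemias 2, 5 and 6 alone to -0.34 without leukemia 2. A class median over so few genes was not tested.

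**Figure D3:**
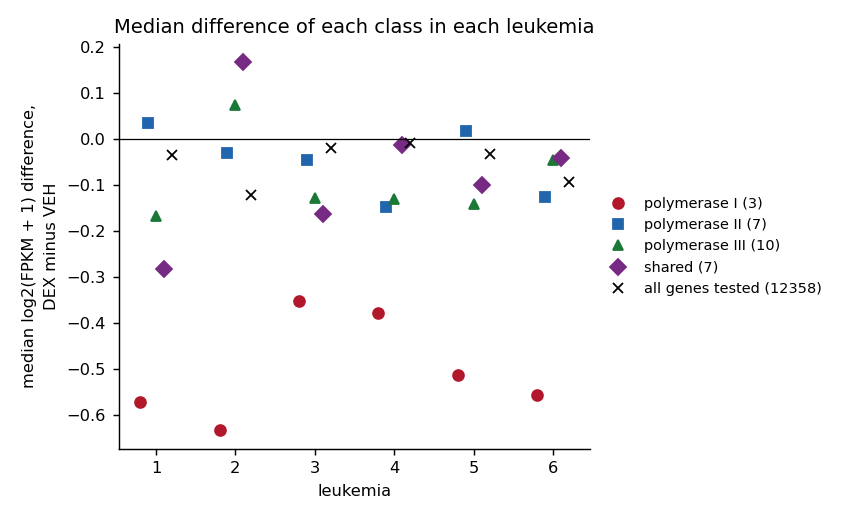
Median DEX minus VEH difference on the log2(FPKM + 1) scale (vertical axis) of the genes of polymerase I (3 genes), II (7), III (10), the shared subunits (7) and all genes tested, in each of the 6 leukemias (horizontal axis). The polymerase I points lie between -0.63 and -0.35, under the points of every other class in each leukemia.

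The summed level of granulocyte and monocyte markers was 2401 to 9490 FPKM in VEH and 1555 to 5643 in DEX. It was lower with DEX in every leukemia except 3, where it rose from 2401 to 3466. Of 12 markers, 1 (Ltf) was called as lower and 11 did not pass, beside 9.28% of all genes tested called as lower. The median difference of these markers was -0.46, against -0.05 for all genes tested. In leukemia 3 the polymerase I median was -0.35, and Polr1b was at -0.61. The erythroid sum was highest in the VEH library of leukemia 2, and without that leukemia 7 members were called as lower. The granulocyte and monocyte sum was highest in leukemia 1 in both groups, and without that leukemia 3 members were called as lower. Without leukemia 4 or 5 the count was also 3. The B-lineage sum was at most 16.2 FPKM outside the VEH library of leukemia 2. The part of other marrow cells in the polymerase differences was not tested.

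Because FPKM is per length of gene, levels can be set side by side, but only roughly. The annotation release behind the gene lengths is not given, and exons of Polr2c, Polr2i and Polr2j overlap opposite-strand genes. In VEH, the mean levels of the 7 genes of polymerase II alone ran from 24.5 (Polr2i) to 70.7 FPKM (Polr2g), all above the 10 genes of polymerase III alone, which ran from 6.51 (Polr3g) to 20.5 FPKM (Polr3k). The 3 genes of polymerase I alone lay between 15.9 and 22.5 FPKM. Shared genes covered the whole span, from 8.76 FPKM for Polr2l to 80.4 FPKM for Polr1d, the highest member. The medians were 21.1, 39.7 and 13.6 FPKM for polymerases I, II and III and 28.6 FPKM for the shared genes, against 13.2 FPKM for all genes tested. The ranges of neighbours in this order overlapped in VEH, apart from Polr3g and the pseudogene below it.

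**Figure D4:**
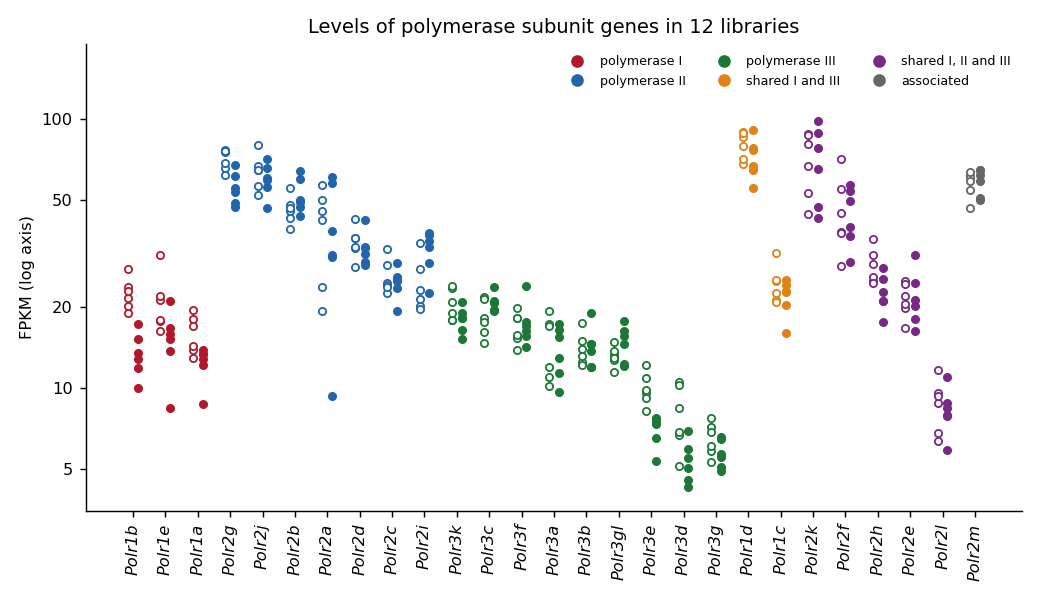
FPKM (log axis) of the named members other than the pseudogene in all 12 libraries, by class and falling level; open points are VEH libraries and filled points DEX libraries. VEH means of genes of polymerase II alone lie above those of polymerase III alone, and Polr2a has the widest scatter of the functional members.

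Leukemias differed in 11 of 29 members by an F test on the leukemia terms (limma, adjusted p under 0.05), beside 51.1% of all genes tested. The smallest value was that of Polr2k (adjusted p = 0.000215), with levels of 42.97 to 53.0 FPKM in all libraries of leukemias 1 and 5 and 65.0 to 98.22 FPKM in those of the other 4. Polr3a followed (adjusted p = 0.0032), at 15.4 to 19.4 FPKM in leukemias 3, 4 and 5 and 9.63 to 12.9 FPKM in leukemias 1, 2 and 6. As Polr3b varied less, the ratio of Polr3a to Polr3b ran from 0.70 in leukemia 6 to 1.56 in leukemia 3. Polr2f was the third (adjusted p = 0.00515), highest in leukemia 3 and lowest in leukemia 5. Others past the threshold were Polr1b, Polr1e, Polr2a, Polr2b, Polr2d, Polr2m and Polr3b.

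Factors that work with each polymerase were read from lists of related genes. Of 8 tested polymerase I factors, 4 were lower and 1 higher, with a median of -0.14. Over all genes tested, 9.28% were lower and 4.27% higher, and the count was not tested against these shares. Ubtf, which coats the ribosomal RNA genes, fell from 60.6 ± 7.34 to 47.8 ± 8.11 FPKM (SD, n = 6; -0.34 ± 0.06, SE; limma adjusted p = 0.0109). Taf1a, a subunit of the promoter selectivity factor SL1, fell from 9.14 ± 1.53 to 6.59 ± 1.46 FPKM (-0.43 ± 0.08, limma adjusted p = 0.0099). The other 2 lower genes were Rrn3 (-0.36), which brings polymerase I to its promoter, and Taf1d (-0.24), a further SL1 subunit. The Rrn3 call was lost without leukemia 1 or 5 (limma adjusted p = 0.0532 and 0.0569), and the Taf1d call without leukemia 1, 2, 4, 5 or 6 (limma adjusted p = 0.0642 to 0.133). Small RNA genes lie within Taf1d, and gene models on its own strand overlap 11.5% of its exonic bases.

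Taf1c, also an SL1 subunit, moved the opposite way. It was at 8.60, 12.16, 12.22, 9.50, 5.86 and 10.34 FPKM in VEH and at 19.74, 28.88, 22.55, 31.77, 12.74 and 21.33 FPKM in DEX. Levels rose in 6 of 6 leukemias, and every DEX library was above every VEH library, a separation seen in the higher direction for 0.388% of all genes. The difference was 1.12 ± 0.10 (SE, n = 6; limma adjusted p = 0.000768). Exons of Dnaaf1 on the opposite strand overlap 16.7% of the exonic bases of Taf1c, and their part in this rise was not tested. Tbp, which SL1 shares with the factors of the other polymerases, was at 28.5 FPKM in VEH and 27.8 in DEX and did not pass.

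**Figure D5:**
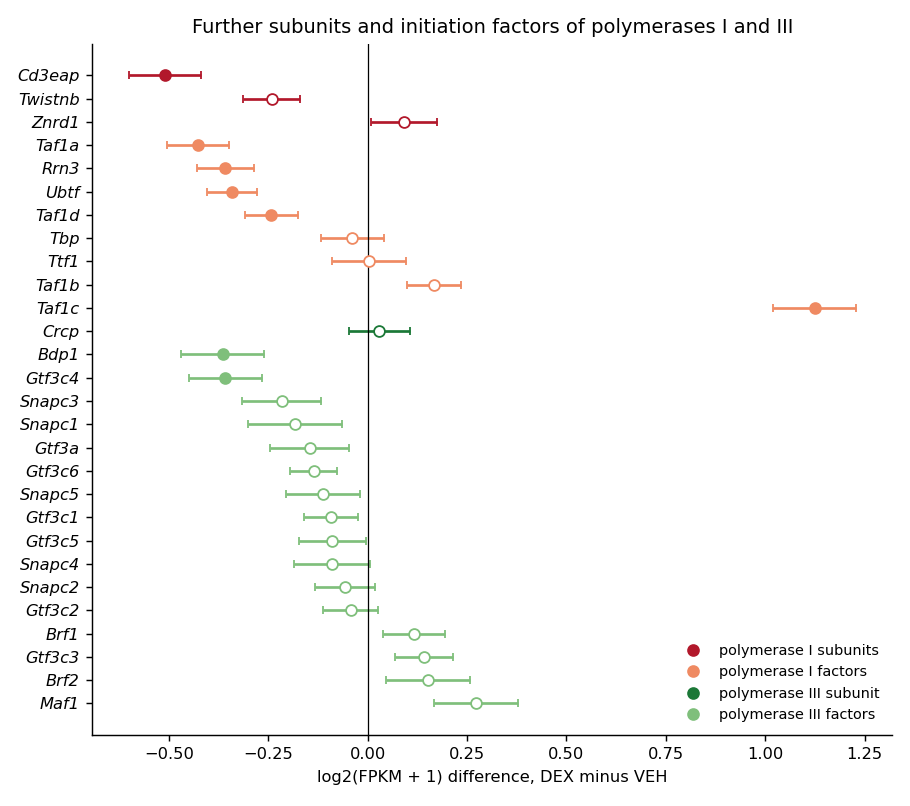
Difference DEX minus VEH on the log2(FPKM + 1) scale (horizontal axis) for further subunits and for factors of polymerases I and III, with SE bars and filled points where the limma adjusted p was under 0.05. Taf1c stands alone above 1 among the polymerase factors. Ubtf, Taf1a, Rrn3 and Cd3eap of polymerase I and Gtf3c4 and Bdp1 of polymerase III lie between -0.51 and -0.34.

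Among 18 general factors of polymerase II, 1 was lower, 1 was higher and 16 did not pass, with a median of -0.05. The shares over all genes tested were 9.28% lower and 4.27% higher. Counts in this list and in those that follow were not tested against these shares. The lower gene was Gtf2e2, the small subunit of TFIIE (-0.49 ± 0.10, limma adjusted p = 0.0173). The higher gene was Gtf2h5, of TFIIH (0.26 ± 0.06, limma adjusted p = 0.0299). The Gtf2e2 call was lost without leukemia 4 or 5 (limma adjusted p = 0.0534 and 0.0558), and the Gtf2h5 call without any single leukemia (limma adjusted p = 0.0539 to 0.0733). Of 19 tested pausing and elongation factors, 1 was higher (Ell, 0.32 ± 0.09, limma adjusted p = 0.0414) and 0 were lower, or 4 and 1 at an unadjusted p under 0.05, with a median of 0.01. The Ell call was lost without leukemia 1, 2, 4, 5 or 6 (limma adjusted p = 0.0798 to 0.121). Of 16 polymerase III factors, 2 were lower and 0 higher, with a median of -0.09; at an unadjusted p under 0.05, 1 was higher. The 2 lower genes were Gtf3c4 (-0.36 ± 0.09, limma adjusted p = 0.0344), of the assembly factor TFIIIC, and Bdp1 (-0.36 ± 0.10, limma adjusted p = 0.0493), of TFIIIB, and both calls were lost without leukemia 1, 2, 4, 5 or 6 (limma adjusted p = 0.0561 to 0.112). Maf1, the repressor of polymerase III, went from 54.1 ± 13.2 to 65.3 ± 13.1 FPKM (SD, n = 6; 0.27 ± 0.11, SE; limma adjusted p = 0.12), higher in 5 of 6 leukemias. In the same libraries Myc fell from 72.5 to 28.7 FPKM (-1.31 ± 0.12, SE, n = 6; limma adjusted p = 0.000651).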

How the data were processed

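Total RNA libraries (6 VEH, 6 DEX) were grouped by the labels' treatment and paired by the leukemia code in the titles. The authors deposited linear FPKM with 2 decimals. Per the submitters' processing notes, Bowtie2 (version 2), RSEM, edgeR and mm10 were used; their roles, the annotation release and the strand setting are not given in the sources used here. The table holds no counts, so depth is only an estimate, from the commonest value of 1 fragment in 1772 sparse genes of 400 to 700 bases with an assumed fragment of 150 bases. Coordinates come from GENCODE M21 on GRCm38 (37693 of 38339 identifiers matched).

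Genes with at least 1 FPKM in at least 6 libraries (12358) were tested on log2(FPKM + 1) with limma 3.58.1 in R 4.3.3 (leukemia block, treatment, eBayes with trend, two-sided, Benjamini-Hochberg; 5 residual and 3.995 prior degrees of freedom). The method was tested on simulated data. Both libraries of a pair carry 1 primary leukemia; with group means removed, r over genes was 0.55 to 0.82 within pairs and -0.34 to 0.21 between leukemias. Each arm is 1 library and leukemia is a block, so p-values for DEX weigh the mean difference against the spread of paired differences among leukemias. Values in every library are given for the largest and second largest subunits, Polr3g, Polr3gl and called members with a difference of at least 0.5; for listed genes, up to 3 with the smallest p. The counts and medians cover all members, but the values of 1 member are not reported here. Other genes detailed (Polr1e, Polr2g, Polr2h, Polr2i, Polr3d, Polr3e, Taf1d, Rrn3, Tbp) were chosen after their values were seen. Members, lists and tests were chosen with earlier results of these data known. The 18 alternatives changed the pseudocount, filter, scaling, block, variance model or leukemias. Descriptions of the DEX libraries of leukemias 2, 5 and 6 lack the closing S-number that all others carry, so these leukemias were also analysed apart. A term for the S-number leaves the DEX difference to leukemias 1, 3 and 4. It therefore repeats the differences of leukemias 1, 3 and 4 alone with other errors, and these alternatives are not independent.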

Additional observations from a re-analysis of the deposited data

Results flagged for a closer look

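In 87 groups of 6 values (levels in VEH, levels in DEX and differences of each member), 8 had an extreme value whose gap to its neighbour exceeded Dixon's limit for the share of the range; chance gives about 1 in 20 groups. Among polymerase I genes, Polr1a in DEX was lowest in leukemia 5 (8.76 FPKM, next 12.20), and Polr1e in VEH was highest in leukemia 6 (31.34 FPKM, next 21.94). The Polr1a value lowers the DEX mean, and the Polr1a difference without leukemia 5 was -0.30. Polr2d in DEX was highest in leukemia 6 (42.07 FPKM, next 33.44), Polr3b in DEX was highest in leukemia 4 (19.07 FPKM, next 14.62), and Polr3f in DEX was highest in leukemia 2 (23.88 FPKM, next 17.65). Leukemia 2 also had the highest difference of Polr2j (0.33, next -0.13) and of Polr3a (0.22, next -0.07), and leukemia 3 that of Polr3k (0.023, next -0.18). So 3 of the 8 belong to leukemia 2, whose VEH library has the highest erythroid and B-lineage marker sums; their part was not tested.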

How the results depend on the processing

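Over 18 alternatives, 475 of 522 values of single members kept their side of the threshold, 45 were lost, 2 were gained (Polr2i without leukemia 3, Polr1d as TPM) and 0 called values changed sign; much of that is by construction, since several alternatives leave the differences as they were. Among genes not called, 12 changed sign somewhere. The 7 members called as lower became 2 with no filter, 4 with median-of-ratios scaling, 1 with no replicate block, 4 in leukemias 1, 3 and 4 alone, 1 in leukemias 2, 5 and 6 alone and 1 with a term for the S-number of the labels. For polymerase I, 3 became 1 with no filter, no replicate block, leukemias 2, 5 and 6 alone or the S-number term. The 3 became 2 with median-of-ratios or quantile scaling and in leukemias 1, 3 and 4 alone. For polymerase II, 1 became 0 with no replicate block, either set of 3 leukemias or the S-number term. For polymerase III, 2 became 0 with no filter, no replicate block, leukemias 2, 5 and 6 alone or the S-number term, and 1 with median-of-ratios or quantile scaling. For the shared genes, 1 became 2 as TPM and 0 with no filter, median-of-ratios scaling, no replicate block, either set of 3 leukemias or the S-number term. Leaving out 1 leukemia at a time gave 3 to 7 members lower (3 without leukemia 1, 4 or 5) and 0 to 1 higher; polymerase I had 2 to 3 lower, polymerase II 1 to 1 lower and 0 to 1 higher, polymerase III 0 to 2 lower and the shared genes 0 to 1 lower.

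Over all genes, the 528 higher and 1147 lower became 181 and 370 with no filter (more genes tested), 261 and 1889 as TPM, 35 and 46 with no replicate block, 188 and 257 in leukemias 2, 5 and 6 alone, and 236 and 282 with the S-number term. The lower ones became 753 with median-of-ratios scaling and 523 in leukemias 1, 3 and 4 alone; leaving out 1 leukemia gave 233 to 532 higher and 425 to 1042 lower. The polymerase I median was -0.60 in leukemias 2, 5 and 6 alone. The polymerase II median was -0.21 as TPM. It was 0.0021 in leukemias 1, 3 and 4 alone and with the S-number term, which gives the same differences by construction. The polymerase III median was -0.21 as TPM and 0.017 in leukemias 2, 5 and 6 alone. The median of all genes was 0.0024 with no filter, -0.17 as TPM and -0.0029 with median-of-ratios scaling. Where fewer leukemias enter, fewer samples are a part of the construction; otherwise the cause was not tested. Depth limits Polr2k-ps most, and Polr3d and Polr2l rest on an estimated 149 and 179 fragments in their thinnest libraries.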

Other observations

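Polymerases are assembled in the cytoplasm with the help of the R2TP complex and then imported. Of 11 assembly and import genes, 2 were lower with DEX and 0 higher, beside 9.28% and 4.27% of all genes tested. Their median was -0.08, and at an unadjusted p under 0.05, 1 was higher. The 2 lower genes encode the paired ATPases of R2TP. Ruvbl1 fell from 44.9 ± 7.27 to 33.8 ± 4.43 FPKM (SD, n = 6; -0.39 ± 0.06, SE; limma adjusted p = 0.00656), and Ruvbl2 fell from 42.6 ± 6.33 to 34.0 ± 7.23 FPKM (-0.33 ± 0.08, limma adjusted p = 0.0238). Both were lower in 6 of 6 leukemias, and the Ruvbl2 call was lost without leukemia 1, 2, 4 or 5 (limma adjusted p = 0.0599 to 0.0785). Gpn1, a GTPase of polymerase import, was at 37.2 and 32.2 FPKM and did not pass (-0.20 ± 0.07, limma adjusted p = 0.106). Exons of Lhb and Gys1 on the opposite strand overlap 15.4% of the exonic bases of Ruvbl2.

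Of 6 listed stable products of polymerase III, 3 were found among the genes. At 4 hours, 0 of these 3 passed, and 0 at an unadjusted p under 0.05. Rn7sk, the RNA that holds the elongation factor P-TEFb inactive, went from 207054 ± 42069 to 214617 ± 32031 FPKM (SD, n = 6; 0.06 ± 0.20, SE; limma adjusted p = 0.858). Rmrp and Rpph1, the RNAs of the RNase MRP and RNase P enzymes, differed by 0.10 ± 0.13 (limma adjusted p = 0.61) and 0.05 ± 0.14 (limma adjusted p = 0.827). A second Rmrp model on the same strand overlaps 100% of the exonic bases of Rmrp. Ccnb1ip1, also on the same strand, overlaps 73.0% of those of Rpph1, so reads of these models may not be separated. These are levels of long-lived RNAs, and synthesis was not measured. The short ribosomal and transfer RNAs themselves were not analysed here.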
